A study of Mus musculus with 17 samples.

Results

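The 9 genes described here belong to the retinoid pathway. They are the 3 retinoic acid receptor genes *Rara*, *Rarb* and *Rarg*, the cytoplasmic retinoic acid binding protein genes *Crabp1* and *Crabp2*, the retinol uptake receptor gene *Stra6*, the retinal reductase gene *Dhrs3*, and the retinoic acid receptor responder genes *Rarres1* and *Rarres2*. They were taken by name from the 55450 genes of the bulk table, and 7 of the 9 passed the filter on low values used for the tests. *Rarres1* and *Rarb* passed it only through their values in lung-derived CD44low cells, so neither the number of genes that passed nor a count over them is read as a result.

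Retinol is taken up by cells, oxidized to retinal and then to retinoic acid, and retinoic acid binds RAR proteins that sit on DNA together with RXR partners. Bound receptors turn on target genes, among them genes that lower the supply of the ligand again, such as *Dhrs3*, which returns retinal to retinol, and the Cyp26 family, which breaks retinoic acid down. In the mammary gland, retinoic acid is known for slowing the growth of epithelial cells, and loss of *Rarb* expression is known from breast cancer.

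The libraries came from cultured cells of female FVB/NJ MMTV-PyMT mice, in which the mouse mammary tumor virus promoter drives the polyomavirus middle T oncogene in mammary epithelium, so that every group carries this transgene. Tumor cells were taken from the mammary fat pad (MFP), which held the primary tumor, and from 3 organs with metastatic disease, lymph node (LN), lung and bone marrow (BM). They were sorted on surface EpCAM and CD44 and expanded in culture. The 7 bulk groups of 2 libraries each were MFP, with no CD44 status in the labels, and the CD44low and CD44high cells of LN, BM and lung, all gated EpCAMhigh. Replicates were separate clonal isolates from different mice, so each value describes 1 isolate. Single-cell libraries, 1 each, were made from lung-derived CD44high (lungH), lung-derived CD44low (lungL) and LN-derived CD44high (lymphH) cells. The design addresses how expression differs between the primary tumor and each metastatic site, and between CD44high and CD44low cells.

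The labelled cell type was compared with its defining markers. In both lung-derived CD44low libraries *Epcam* and *Krt8* were listed at 0 TPM (a relative transcript level corrected for transcript length), the 10 epithelial markers summed to 2.43 and 2.61 TPM, and 6 of the 10 were listed at 0 in both. The 10 fibroblast markers summed to 4710 and 5120 TPM in those libraries, with 9 of 10 at 1 TPM or more in both and *Fap* at 0 in both. In lung-derived CD44high cells the epithelial sums were 16 and 87.6 TPM and the fibroblast sums 212 and 95.7 TPM. Across LN and BM the epithelial sums were 2260 to 4840 TPM and the fibroblast sums 8.94 to 29.3 TPM, and in MFP they were 8330 and 7200 TPM against 1.28 and 0.59 TPM. Endothelial markers summed to at most 0.21 TPM in any library. Cycling markers summed to 3.6 to 54.8 TPM in the 4 lung-derived libraries and to 478 to 4930 TPM in the other 10. *Cd44* was at 400 and 210 TPM in MFP and at 12.1 to 21.95 TPM in the lung-derived libraries, and it did not follow the CD44 labels within lung, where the CD44low libraries were at 12.2 and 21.6 TPM and the CD44high libraries at 21.95 and 12.1 TPM. In LN it ran opposite to the labels without overlap, at 146.7 and 82.7 TPM in CD44low and 49.04 and 52.3 TPM in CD44high, and in BM it was at 43.8 and 74.9 TPM in CD44low and 50.5 and 49 TPM in CD44high. CD44low and CD44high here and in every comparison are therefore names of the labelled sort, not of *Cd44* RNA levels. Replicates correlated at Pearson r of 0.908 (BM CD44low) to 0.98 (lung CD44low) across genes on the log2(TPM + 1) scale, and the second BM CD44low library stood apart with 13052 genes at 1 TPM or more against 11508 to 12351 in the others. Since these are bulk samples, fewer cells of a type and less RNA per cell cannot be told apart.

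Receptors of retinoic acid bind paired half-sites in DNA, and a pair in the same direction spaced by 5 bases, a DR5, is the element known from the promoter of *Rarb* itself. Promoter windows were searched for it because it ties a receptor gene of the list to its own ligand. The windows run from 250 bases before to 50 bases after a RefSeq start site on build GRCm38.p6. The half-site searched was AGGTCA or one of its close forms, which were AGTTCA and also GGGTCA as well as GGTTCA, as direct repeats spaced by 1, 2 or 5 bases, on both strands. Windows were found for 7 of the 9 genes. The search at a spacing of 5 matched 31 of 27025 genes, 0.115%, and *Rarb* was the 1 match among the 7. The forms AGTTCA and GGTTCA and the spacing of 5 are those of the known *Rarb* element. The *Rarb* match was thus set in advance and is not read against the share. Its match lay at chr14:16575513-16575529 on the minus strand and began 53 bases upstream of the start site. The 250 bases upstream of that start, chr14:16575477-16575726, are shown with the 2 half-sites of the repeat in capitals, followed by the matched 17 bases and, for comparison, by the 1 match among the other genes of the pathway, which was in the *Cyp26a1* window at chr19:37697776-37697792 and is written as read on the minus strand.
Rarb upstream: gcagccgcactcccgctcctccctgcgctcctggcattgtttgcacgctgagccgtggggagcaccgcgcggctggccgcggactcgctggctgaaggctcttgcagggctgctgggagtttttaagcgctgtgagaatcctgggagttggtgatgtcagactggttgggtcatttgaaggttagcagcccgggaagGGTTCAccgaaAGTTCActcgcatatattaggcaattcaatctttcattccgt
Rarb match: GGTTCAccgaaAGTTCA
Cyp26a1 match: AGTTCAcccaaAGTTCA
At a spacing of 2, the repeat matched 0.311% of genes, and at a spacing of 1 it matched 0.263%. None of the 7 genes was among either. The *Rarres1* window is shown because this gene had the largest contrast between groups relative to its error. Upstream of its start, at chr3:67515524-67515773 on the minus strand, the window held a single half-site, read on the other strand and in capitals.
Rarres1 upstream: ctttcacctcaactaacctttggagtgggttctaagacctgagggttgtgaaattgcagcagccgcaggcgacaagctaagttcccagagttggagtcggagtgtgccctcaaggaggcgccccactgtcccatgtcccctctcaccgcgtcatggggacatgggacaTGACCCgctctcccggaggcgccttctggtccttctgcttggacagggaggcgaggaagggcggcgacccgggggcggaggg
A match describes letters in a window only, and a window without one says nothing of the receptor.

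**Figure D1:**
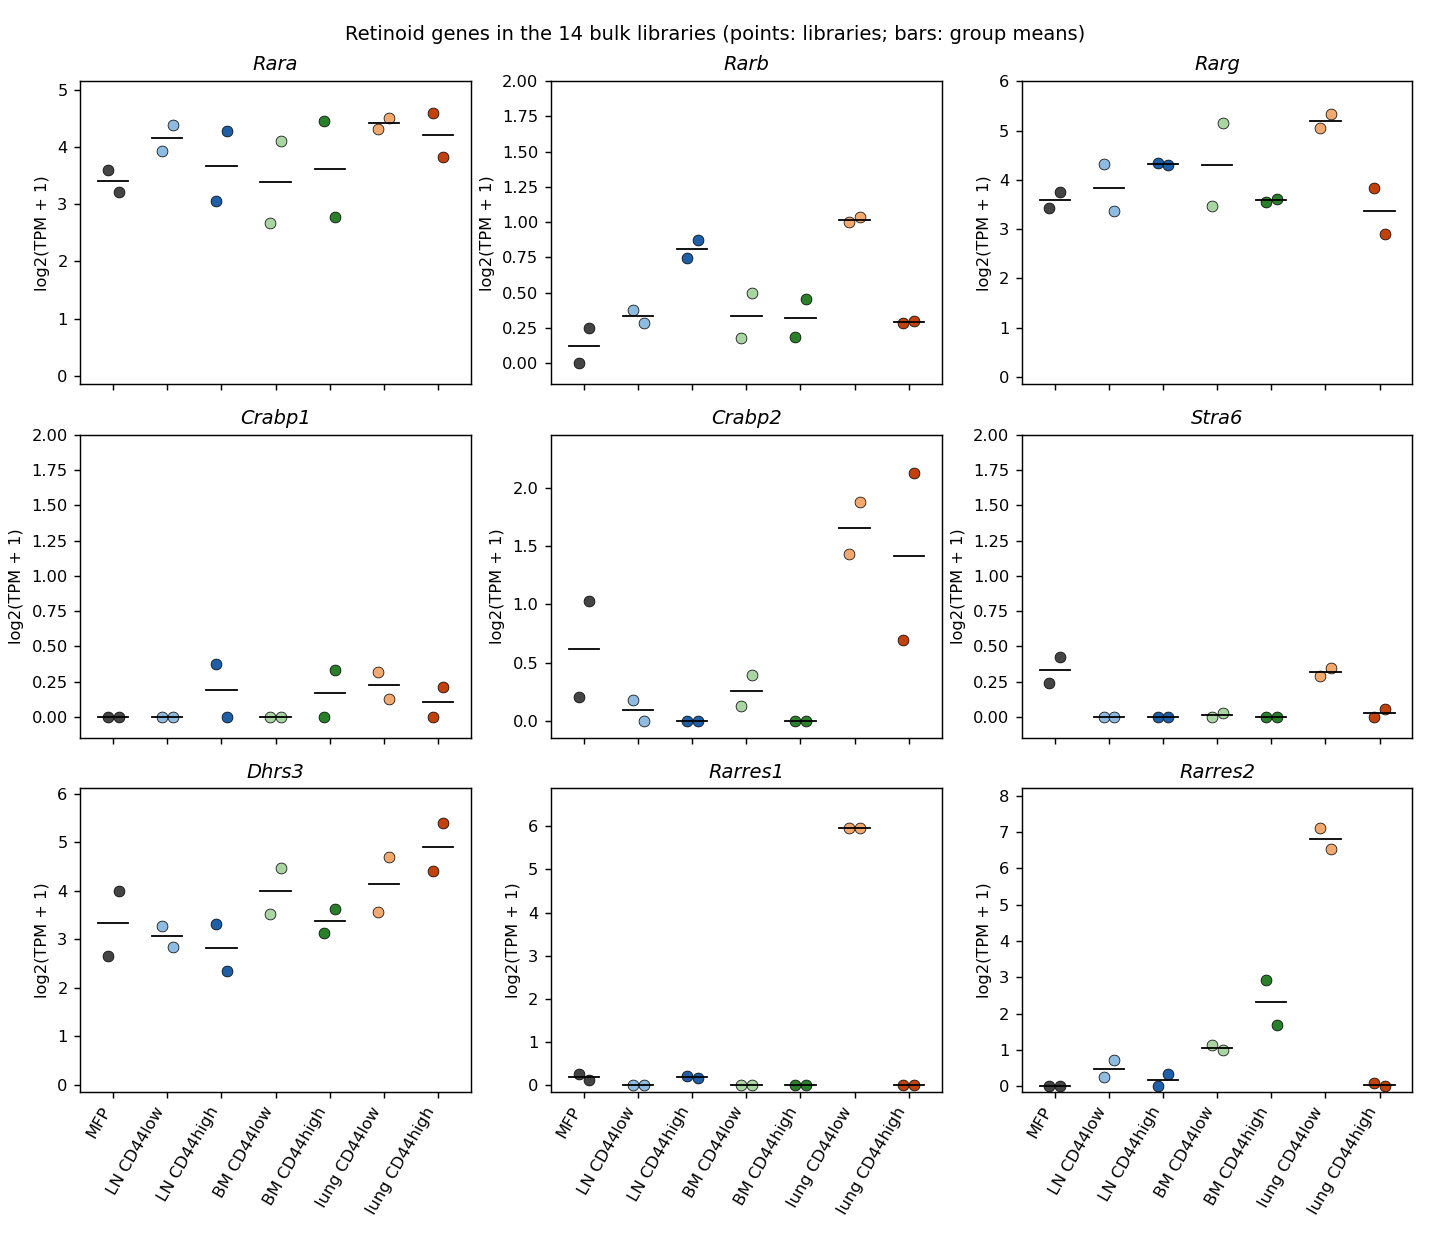
Levels of the 9 genes on the log2(TPM + 1) scale (vertical axis) in the 14 bulk libraries, by group (horizontal axis). Points are libraries and bars are group means. *Rarres1* and *Rarres2* stand far above every other library in both lung CD44low libraries, while *Crabp1* and *Stra6* stay below 1 TPM throughout.

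*Rarres1* was high in lung CD44low cells and at or near 0 elsewhere. It encodes a membrane protein named for its induction by retinoic acid receptor ligands and lies on chromosome 3 (mm10, chr3:67478972-67515523, minus strand, ENSMUSG00000049404.7). Its level was 60.82 TPM in both lung CD44low libraries, which differed in other genes. In MFP it was at 0.20 and 0.09 TPM, and in LN CD44high at 0.17 and 0.12 TPM. It was listed at 0 in both libraries of LN CD44low, BM CD44low, BM CD44high and lung CD44high. The lung CD44low libraries thus lay above the other 12, all of which were at or below 0.20 TPM.

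*Rarres2* encodes chemerin, a secreted protein that attracts immune cells and acts on adipocytes (chr6:48569696-48572789, minus strand, ENSMUSG00000009281.6). Its level was 136 and 91.5 TPM in lung CD44low cells. BM CD44high cells followed with 6.63 and 2.24 TPM and BM CD44low cells with 1.2 and 0.99 TPM. LN CD44low cells were at 0.19 and 0.65 TPM, LN CD44high cells at 0 and 0.27 TPM, lung CD44high cells at 0.06 and 0 TPM, and MFP was listed at 0 in both libraries. The first 3 groups did not overlap with each other or with any lower group, and the 4 lowest groups overlapped or were listed at 0. *Rarres2* shares 1027 bases with *Lrrc61* on the opposite strand, and reads there cannot be told apart if strand was not used. *Lrrc61* itself was at 9.39 and 12.9 TPM in lung CD44low and at 20.5 and 12.4 TPM in lung CD44high, where *Rarres2* was at or near 0. In the other 10 libraries it was at 2.24 to 7.22 TPM, with MFP at 5.04 and 4.75 TPM, so against MFP both genes were higher in lung CD44low. The part of shared reads in the *Rarres2* values was not tested.

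Each group derived from a metastatic site was compared with MFP, and these 6 comparisons share the same 2 MFP libraries. A gene was called where limma gave an adjusted p under 0.05 over all 15348 genes tested and a difference of more than 2 on the log2(TPM + 1) scale. In lung CD44low against MFP, *Rarres1* and *Rarres2* rose and no member fell, where 18.8% of all genes tested were called and 11.2% called higher. The count of 2 is not read against these shares, here or in the other comparisons with lung CD44low cells, since *Rarres1* and *Rarb* entered the test through those cells. *Rarres1* rose by 5.76 on the log2(TPM + 1) scale (SE 0.16, limma adjusted p 5.23e-09). This SE rests on groups at or near 0 and on equal values in lung CD44low. It does not measure spread between isolates at a high level. The p values of *Rarres1* and *Rarb* in comparisons with those cells are description only, since both passed the filter through them. *Rarres2* rose as well (limma adjusted p 4.77e-07), from 0 in both MFP libraries, so no fold is given. Between CD44high and CD44low cells of the lung, 2 members fell and none rose, where 11.3% of all genes were called and 8.8% called lower. These were *Rarres1*, listed at 0 in both CD44high libraries (limma adjusted p 5.31e-09), and *Rarres2*, at 0.06 and 0 TPM there, with a difference of -6.78 (SE 0.39, limma adjusted p 7.35e-07) that depends on the pseudocount of 1. With both lung groups set against the 4 LN and BM groups, *Rarres1* and *Rarres2* were the 2 members called, both higher, where 12.7% of all genes were called and 7.13% called higher. This average mixes lung CD44low libraries, which were high, with lung CD44high libraries, which were at or below 0.06 TPM for both genes.

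The CD44 difference in the lung was then set against that in LN and BM. It was lower in lung than in LN for *Rarres1* (-6.15, SE 0.23, limma adjusted p 1.4e-07) and *Rarres2* (-6.46, SE 0.55, limma adjusted p 2.57e-05), where 10.4% of all genes were called and 7% called lower. Against BM it was lower for *Rarres1* (-5.95, SE 0.23, limma adjusted p 1.46e-07) and *Rarres2* (-8.02, SE 0.55, limma adjusted p 5.47e-06), where 8.66% were called and 5.89% called lower. These interaction values depend on the pseudocount, since lung CD44high cells were listed at or near 0. The fibroblast marker sum was highest where both genes were, at least 4710 TPM in the lung CD44low libraries and at most 212 TPM elsewhere. Outside those libraries it did not follow them. Lung CD44high cells had sums of 212 and 95.7 TPM with both genes at or near 0, and BM CD44high cells, second in *Rarres2*, had sums of 29.3 and 27.2 TPM. The part of the sum in the result was not tested. *Epcam*, at 0 in lung CD44low and at 0.23 and 0.86 TPM in lung CD44high, was low in both lung groups.

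Outside the lung, *Rarres2* in BM CD44high cells was the 1 member called against MFP, where 7.67% of all genes were called and 3.64% called higher (limma adjusted p 0.00208, MFP listed at 0). The call rested on the first BM CD44high library at 6.63 TPM. Without it the difference was 1.70 (limma adjusted p 0.0133), under the fold limit, and with only BM CD44high and MFP in the fit the adjusted p was 0.0508. In BM CD44low, *Rarres2* at 1.2 and 0.99 TPM gave a limma adjusted p of 0.0787. No member was called in LN CD44low, LN CD44high, BM CD44low or lung CD44high against MFP, where 4.79%, 6.12%, 7.16% and 13.5% of all genes were called. At an unadjusted p under 0.05 in limma the members numbered 0, 1 (*Rarb*), 1 (*Rarres2*) and 1 (*Dhrs3*) of 7 in those comparisons, where the shares of all genes tested were 26.6%, 36%, 35% and 44.7%. CD44high against CD44low cells gave no member in LN or BM, where 0.208% and 0.104% of all genes were called, and 1 member in each at an unadjusted p under 0.05 in limma, *Rarb* in LN and *Rarres2* in BM, beside 10.1% and 7.4% of all genes.

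**Figure D2:**
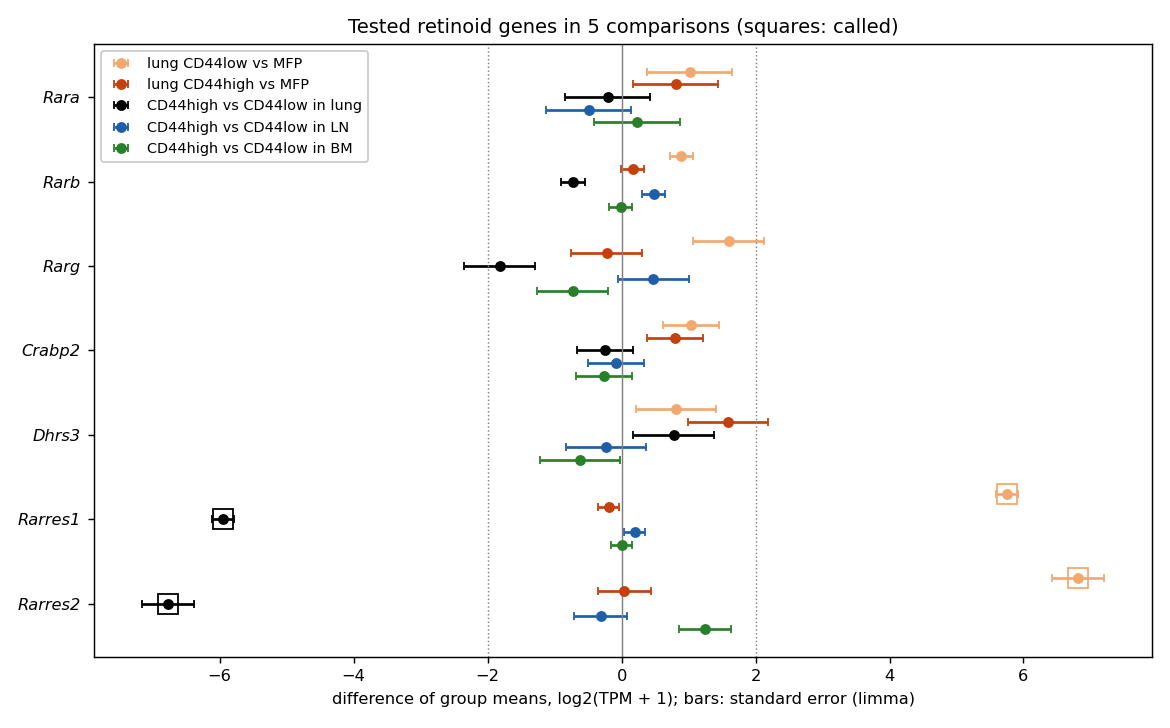
Differences of group means on the log2(TPM + 1) scale (horizontal axis) for the 7 tested genes (vertical axis) in 5 comparisons. Horizontal lines are standard errors from limma, dotted lines mark the fold limit of 2, and squares mark calls, which are *Rarres1* and *Rarres2* in lung CD44low against MFP and in CD44high against CD44low cells of the lung.

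Among the receptor genes, *Rara* was measured in every library. It encodes RAR alpha, the most widely expressed of the 3 receptors (chr11:98927818-98974942, plus strand, ENSMUSG00000037992.16). Its level was 11.1 and 8.21 TPM in MFP, 14.3 and 19.7 in LN CD44low, 7.30 and 18.3 in LN CD44high, 5.34 and 16.3 in BM CD44low, 20.9 and 5.88 in BM CD44high, 18.96 and 21.8 in lung CD44low and 23.01 and 13.2 in lung CD44high. Both MFP libraries were below those of LN CD44low, lung CD44low and lung CD44high, and within the ranges of LN CD44high, BM CD44low and BM CD44high. In BM, replicates differed by more than the group means did. Its limma adjusted p was 0.208 or more in all 12 comparisons.

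*Rarg* encodes RAR gamma, the receptor known from skin and skeleton (chr15:102234938-102257517, minus strand, ENSMUSG00000001288.15). Its level was 32.0 and 39.5 TPM in lung CD44low cells and 13.2 and 6.51 TPM in lung CD44high cells. The second BM CD44low library reached 34.6 TPM against 10.1 TPM in its replicate, and the other 9 libraries, that replicate included, lay between 9.27 and 19.2 TPM. Lung CD44low cells differed from MFP, at 9.84 and 12.5 TPM, by 1.60 (SE 0.53, limma adjusted p 0.0319), and lung CD44high from lung CD44low cells by -1.82 (SE 0.53, limma adjusted p 0.0261). Both passed the p threshold and not the fold limit, so neither counts as a call. The groups did not overlap in either comparison. Without the first lung CD44high library the CD44 difference was -2.28 and was called (limma adjusted p 0.0364). The CD44 difference in the lung was set against that in LN too, and the value of -2.29 (SE 0.75) missed the p threshold with a limma adjusted p of 0.058, though it was called in 5 of 20 alternative settings.

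*Rarb* encodes RAR beta and is itself a known target of retinoic acid (chr14:16430839-16819156, minus strand, ENSMUSG00000017491.9). It was low in every library. Lung CD44low cells were at 1 and 1.05 TPM, LN CD44high cells at 0.68 and 0.83 TPM, and MFP at 0 and 0.19 TPM. The other libraries lay between 0.13 and 0.41 TPM. Lung CD44low and LN CD44high cells, the first and second in order, did not overlap with each other or with the rest. On the log2(TPM + 1) scale *Rarb* differed from MFP by 0.89 in lung CD44low (SE 0.17, limma adjusted p 0.00228) and by 0.69 in LN CD44high (SE 0.17, limma adjusted p 0.018), and lung CD44high differed from lung CD44low by -0.73 (SE 0.17, limma adjusted p 0.0109). The CD44 difference in the lung was lower than that in LN by 1.2 (SE 0.25, limma adjusted p 0.00726). None of these reached the fold limit with a pseudocount of 1, which shrinks differences at such levels. With a pseudocount of 0.1 the lung CD44low difference was 2.72, the LN CD44high difference 2.32 and the interaction -3.04, and all 3 were called. *Rarb* overlaps 4624 bases of *Top2b* on the opposite strand, and *Top2b* was at 11.3 and 24.0 TPM in lung CD44low and at 2.38 to 12.97 TPM in the other 12 libraries.

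Of the genes for cytoplasmic binding, *Crabp2*, whose protein hands retinoic acid to the receptors (chr3:87948666-87953376, plus strand, ENSMUSG00000004885.5), was found mainly in the lung-derived cells. It was at 1.70 and 2.68 TPM in lung CD44low and at 0.62 and 3.38 TPM in lung CD44high. In MFP it was at 0.15 and 1.04 TPM, and the 8 LN and BM libraries lay between 0 and 0.31 TPM. All 4 lung-derived libraries were thus above all 8 from LN and BM. The lung average differed from that of LN and BM by 1.45 (SE 0.26, limma adjusted p 0.000813), under the fold limit. It was called at a pseudocount of 0.1, at 3.71. The range in lung CD44high covered that of lung CD44low, and the adjusted p between these groups was 0.734 with limma. *Crabp1*, which binds retinoic acid in the cytoplasm too (chr9:54764748-54773110, plus strand, ENSMUSG00000032291.8), reached 0.30 TPM at most, had a value of 0 in 9 of 14 libraries and was not tested.

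*Dhrs3* (chr4:144892827-144928209, plus strand, ENSMUSG00000066026.14) was measured in every library, from 4.07 to 41.2 TPM. Lung CD44high cells were at 20.3 and 41.2 TPM and lung CD44low cells at 10.9 and 24.9 TPM. BM CD44low cells were at 10.5 and 21.1 TPM, MFP at 5.25 and 15.03 TPM, BM CD44high at 7.70 and 11.3 TPM, LN CD44low at 8.69 and 6.15 TPM, and LN CD44high at 8.89 and 4.07 TPM. Neighbours in this order of means overlapped throughout. The lung average was higher than that of LN and BM by 1.21 (SE 0.37, limma adjusted p 0.0166), under the fold limit. Lung CD44high differed from MFP by 1.58 (SE 0.60, limma adjusted p 0.0653), and by 2.26, past both thresholds, without the second MFP library. *Stra6*, the receptor for retinol bound to its plasma carrier (chr9:58063788-58153996, plus strand, ENSMUSG00000032327.14), reached 0.34 TPM at most and was not tested. It was at 0.22 and 0.27 TPM in lung CD44low and 0.18 and 0.34 TPM in MFP, and at or below 0.04 TPM in the other 10 libraries.

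Across the 14 bulk libraries, whose points share tissue and gate within each of 7 groups, *Rarres1* and *Rarres2* had a Pearson r of 0.928 on the log2(TPM + 1) scale, *Rarb* and *Rarg* of 0.786, and *Crabp2* and *Dhrs3* of 0.777. The first value follows the 2 lung CD44low libraries. Among the genes most like *Rarres1* were *Cyba* and *Fbln1* (r of 0.999 each), with *Fbln1*, a matrix protein gene, at 87.0 and 78.8 TPM in lung CD44low and at most 0.06 TPM elsewhere. Those most like *Rarres2* were *Lrg1* (0.989), *Vnn1* (0.987) and *Cyp27a1* (0.983). *Lrg1* was at 87.9 and 58.5 TPM in lung CD44low and at 7.29 and 1.73 TPM in BM CD44high, the same first and second places as *Rarres2*. *Rarb* was most like *Igf2bp3* (0.906), *Car11* (0.878) and *Armcx1* (0.86), *Crabp2* most like *Rsu1* (0.93), *Bex3* (0.927) and *Nkiras1* (0.927), and *Dhrs3* most like *Zranb1* (0.879), *Tmem250-ps* (0.866) and *Kctd2* (0.859). For *Rarg* the nearest were *Gm42418* (0.95), *Glis2* (0.934) and *Mbd3* (0.933). *Gm42418* reached 2038 TPM in the second BM CD44low library, the one that stood apart, against 147 TPM in its replicate. It was at 1351 and 1499 TPM in lung CD44low, 357 and 70.6 TPM in lung CD44high and 192 and 132 TPM in MFP, so it moved with the *Rarg* differences given above, and its part in them was not tested. *Rara* had no close likeness, with *Gm26490* at 0.771, *Gm27184* at 0.747 and *Gm15417* at 0.741.

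Of 46 other genes of the pathway, listed by role, 29 were tested. In lung CD44low against MFP, 5 rose, 1 fell and 23 were not called. These 6 were 20.7% of the 29, beside 18.8% of all genes tested, so the count is close to the background and is read only gene by gene. At a pseudocount of 0.1 the count was 10 of the 29, where 4165 of 15348 genes were called. *Aldh1a1*, which makes retinoic acid from retinal, was at 610 and 601 TPM in lung CD44low and at 0 and 0.34 TPM in MFP, a difference of 9.03 (SE 0.74, limma adjusted p 6.68e-06). *Cyp26b1*, which breaks retinoic acid down, was at 39.8 and 67.0 TPM against 0 in both MFP libraries (limma adjusted p 1.82e-05). *Aldh1a3*, an enzyme of the same step as *Aldh1a1*, was at 0 and 0.04 TPM in lung CD44low and at 0.87 and 0.78 TPM in MFP, and *Aldh1a2*, the third of that kind, was listed at 0 in all 14 libraries. *Adh1*, an alcohol dehydrogenase that can oxidize retinol, was at 18.4 and 22.2 TPM against 0 in both MFP libraries and rose (limma adjusted p 8.93e-08). Elsewhere *Adh1* was at most 0.52 TPM, so it passed the filter only through lung CD44low cells, as did *Hic1*, named for this alone. Calls of *Adh1* in comparisons with those cells are description only, and no share of the 29 in them is read as a result. *Dhrs9*, another retinol dehydrogenase, rose by 2.62, and *Ppard*, a nuclear receptor that can answer to retinoic acid, by 2.37. The *Ppard* call was lost without the second lung CD44low library (limma adjusted p 0.0691) or the first MFP library (limma adjusted p 0.0577). *Adh7*, an alcohol dehydrogenase as well, was listed at 0 in both lung CD44low libraries, against 1.61 and 5.54 TPM in MFP, and fell (limma adjusted p 0.00851), with a difference of -2.05 that depends on the pseudocount. That last call was lost under median-ratio scaling (-1.85) and without the second MFP library (-1.38, limma adjusted p 0.0757).

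In lung CD44high against MFP, 3 of the 29 rose and 1 fell, or 13.8%, beside 13.5% of all genes tested. *Dhrs9* reached 46.7 and 34.4 TPM against 0.11 and 0.35 TPM, a rise of 5.07 (SE 0.27, limma adjusted p 7.78e-07). *Aldh1a1*, at 1.99 and 20.9 TPM, and *Ppard* rose by 2.81 and 2.78. *Fabp5*, which carries retinoic acid toward *Ppard*, fell by 3.37, from 228 and 126 TPM to 8.66 and 26.9 TPM. The *Aldh1a1* call was lost without the second lung CD44high library, at 1.37, without the first MFP library, and with only the groups compared (limma adjusted p 0.166). Between CD44high and CD44low cells of the lung, *Adh1*, *Aldh1a1*, *Cyp26b1* and *Fabp5* fell and *Dhrs9* rose by 2.45, which is 17.2% of the 29 beside 11.3% of all genes. The 2 retinol dehydrogenase genes *Adh1* and *Dhrs9* thus moved in opposite directions between the CD44low and CD44high cells of the lung in bulk.

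Against MFP, 10.3% of the 29 pathway genes were called in LN CD44high, 3.45% in BM CD44low and 6.9% in BM CD44high, beside 6.12%, 7.16% and 7.67% of all genes. None of the 29 was called in LN CD44low, with 5 at an unadjusted p under 0.05 in limma beside 26.6% of all genes. In LN CD44high, *Fabp5* (2.82), *Tgm2* (2.28), a transglutaminase gene known as a retinoic acid target, and *Ccrl2* (2.05) rose. All 3 calls were lost without one or other library of the 2 groups, *Fabp5* and *Tgm2* without the second MFP library, and *Ccrl2* without the first MFP or the first LN CD44high library. In BM CD44high, *Fabp5* (2.87) and *Ccrl2* (2.96) rose, and in BM CD44low *Cyp26b1* did, from 0 in MFP to 2.29 and 6.63 TPM. The *Cyp26b1* call was lost without the second BM CD44low library (1.72, limma adjusted p 0.0712), without either MFP library, and with only the groups compared (limma adjusted p 0.0906). With the lung set against LN and BM, *Dhrs9*, *Adh1*, *Aldh1a1* and *Ppard* were higher and *Adh7*, *Aldh1a3* and *Fabp5* lower, 24.1% of the 29 beside 12.7% of all genes. For *Adh1* the average rests on lung CD44low, since lung CD44high, at 0.38 and 0.33 TPM, was within the LN and BM range of 0 to 0.52 TPM. *Aldh1a1* in the first lung CD44high library, at 1.99 TPM, was below both BM CD44low libraries, at 6.25 and 2.33 TPM. *Adh1* was under the fold limit with median-ratio scaling, at 1.98. *Aldh1a3* was at 0 to 0.24 TPM in the lung-derived libraries and at 2.57 to 5.89 TPM in LN and BM, opposite in direction to *Aldh1a1*.

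For chemerin, the product of *Rarres2*, the 3 receptor genes were also read. *Cmklr1*, the signalling receptor, named here after its values were seen, was at 1.49 and 1.59 TPM in lung CD44low, 0.31 and 1.88 TPM in BM CD44low, 0.99 and 1.43 TPM in BM CD44high and 0 to 0.72 TPM in LN, and listed at 0 in lung CD44high and MFP. The second BM CD44low library was thus above both lung CD44low libraries. *Ccrl2*, which holds chemerin at the cell surface without signalling, was at 10.1 and 6.49 TPM in BM CD44high and 5.38 and 2.68 TPM in LN CD44high. In BM CD44low it was at 2.95 and 4.36 TPM, overlapping LN CD44high, and in lung CD44low at 0.52 and 0.36 TPM. BM CD44high cells, second in *Rarres2*, were thus first in *Ccrl2*. *Gpr1*, also named after its values were seen, was at or below 0.06 TPM in every library. *Cyp26a1*, named for its DR5 match, was listed at 0 in all 14 libraries.

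**Figure D3:**
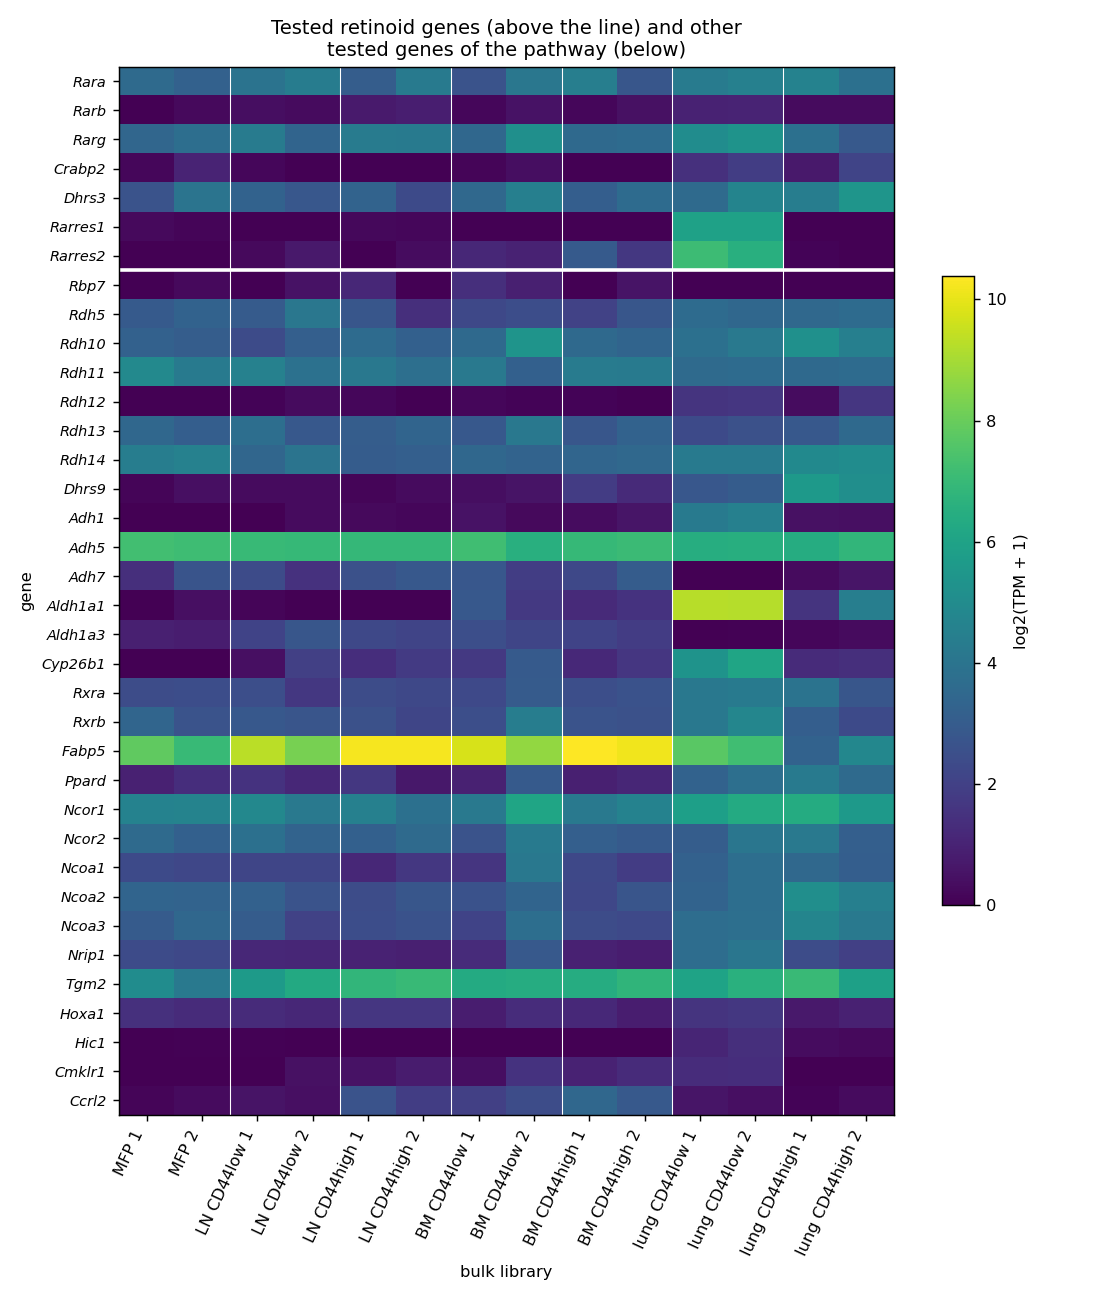
Levels on the log2(TPM + 1) scale (color) of the 7 tested genes, above the white line, and of the 29 tested genes of the pathway, below it (vertical axis), in the 14 bulk libraries (horizontal axis). *Rarres1*, *Rarres2*, *Adh1*, *Aldh1a1* and *Cyp26b1* are bright in the 2 lung CD44low libraries, and *Dhrs9* in the 2 lung CD44high libraries.

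The genes were then read in the single-cell libraries, where kept cells numbered 1236 in lungH, 348 in lungL and 2562 in lymphH. Median counts per cell were 557, 4011 and 585. With 1 library a condition there is no test between conditions, and the exact Poisson 95% intervals given cover counting error only. For a count of 0, the limit given is 3 counts of the total. The barcodes in the tables are numbered and carry no sequence, so barcodes shared between libraries could not be counted. *Epcam* had 3 counts in lungH, 0 in lungL, where 3 counts of the total come to 0.0135 per 10000, and 936 in lymphH. The 10 epithelial markers summed to 4.37 per 10000 in lungH, 1.62 in lungL and 10.7 in lymphH. Of these markers only *Krt18* was higher in lungH than in lymphH, at 2.59 against 1.17 per 10000. *Cd44* was at 8.51 per 10000 (8.13 to 8.90) in lungL and 4.99 (4.70 to 5.29) in lungH, so it was higher in the library labelled CD44low than in the one labelled CD44high. The 10 fibroblast markers summed to 23.5 per 10000 in lungL, 1.73 in lungH and 0.301 in lymphH, and *Acta2*, a smooth muscle actin gene, alone gave 45.6 per 10000 in lungL.

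*Rarres1* had 58 counts in lungL, or 0.261 per 10000 (0.198 to 0.338), 2 counts in lungH, or 0.00905 (0.0011 to 0.0327), and 0 in lymphH, with a limit of 0.00567. The ratio of lungL to lungH was 28.9 (7.64 to 244) and rested on the 2 lungH counts. With an average of per-cell values it was 159. At least 1 count was present in 9.20% of lungL cells (6.38 to 12.7, exact binomial), 0.0809% of lungH cells and 0 of 2562 lymphH cells, for which 3 cells of the total come to 0.117%. With every cell thinned to 500 counts, 1 of 314 lungL cells and none of 948 lungH or 1903 lymphH cells held a count, so a difference in share was not detectable at this depth.

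*Rarres2* had 1 count in lungL, 2 in lungH and 0 in lymphH. Its level of 0.0045 per 10000 in lungL (0.000114 to 0.0251) was within the interval for lungH (0.0011 to 0.0327). The bulk lung CD44low libraries held *Rarres2* at 136 and 91.5 TPM and *Rarres1* at 60.82 TPM. Some other genes, but not all, were also low in lungL. *Dcn*, at 4091 and 4315 TPM in bulk lung CD44low, had 22 counts in lungL, or 0.0991 per 10000, and 0 in lungH. *Aldh1a1*, at 610 and 601 TPM, had 24, or 0.108, and 2 in lungH, a ratio of 11.9 (2.97 to 104). Between the lung libraries both thus had the order of bulk. *Cyp26b1* had 2 counts in lungL and 52 in lymphH. *Dhrs9*, higher in CD44high cells of the lung in bulk, had 17 counts in lungL and 2 in lungH, a ratio of 8.46 (2.01 to 75.5). *Adh1*, higher in CD44low cells in bulk, had 7 and 8 counts, a ratio of 0.871 (0.269 to 2.75). *Fabp5*, higher in CD44low cells in bulk too, was at 1.82 per 10000 in lungL and 4.66 in lungH, a ratio of 0.391 (0.348 to 0.44). The order of *Dhrs9* and *Fabp5* between the lung libraries was thus opposite to bulk. Assay and isolate cannot be told apart here. *Col1a2*, at 47.8 and 77.8 TPM in bulk lung CD44low and so below *Rarres2* there, had 3192 counts in lungL, or 14.4 per 10000. *Col1a2* and the 6 genes of the comparison before it were chosen after their values were seen.

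For the receptors, *Rarg* was at 0.707 per 10000 in lungL (0.601 to 0.827), 0.407 in lungH (0.327 to 0.5) and 0.382 in lymphH (0.331 to 0.439). Its interval in lungL lay above both others, the order also seen in bulk between lung CD44low and lung CD44high. After thinning, 3.82% of lungL cells (1.99 to 6.58), 1.48% of lungH cells (0.81 to 2.47) and 1.31% of lymphH cells held a count, against 23.3%, 4.61% and 5.39% before. *Rara* was at 0.412 in lungH (0.331 to 0.505), 0.225 in lungL (0.167 to 0.297) and 0.104 in lymphH (0.0784 to 0.135), and no 2 of these intervals overlapped. In cells with more than 500 genes, those of lungH and lungL did overlap. *Rarb* had 5, 4 and 4 counts in lungH, lungL and lymphH, too few to separate the libraries.

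*Dhrs3* was at 0.473 per 10000 in lungL (0.387 to 0.572), 0.0769 in lungH (0.0448 to 0.123) and 0.0832 in lymphH (0.0605 to 0.112), a ratio of lungL to lungH of 6.15 (3.66 to 10.9). The ratio was 2.17 with an average of per-cell values, at 0.18 in lungH and 0.167 in lymphH, and 16 in cells with more than 500 genes, at 0.0302 and 0.0519. In bulk, lung CD44high cells had the higher *Dhrs3* mean, with overlapping libraries, so the single-cell order was not that of the bulk means. After thinning, 0.955% of lungL, 0.527% of lungH and 0.998% of lymphH cells held a count, and no order is read from these shares. *Crabp2* was at 0.167 in lungH (0.118 to 0.231), 0.0225 in lungL (0.00731 to 0.0525) and 0 of 5287425 counts in lymphH. *Crabp1* had 1 count in lungL and 0 in the others, and *Stra6* had 0 in all 3. Between lungL and lungH, intervals were apart for 5 of the 8 genes with a count in either, higher in lungL for *Rarg*, *Dhrs3* and *Rarres1* and lower for *Rara* and *Crabp2*. Over all 18488 genes with a count in either library the share apart was 27%, with 13.5% higher and 13.6% lower in lungL, and over genes with at least 20 counts, a minimum that the same 5 members met, it was 43.1%, with 21.2% higher and 21.9% lower. Counting error alone sets these intervals, so many genes lie apart at this depth and the count is not read as a result about the members.

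**Figure D4:**
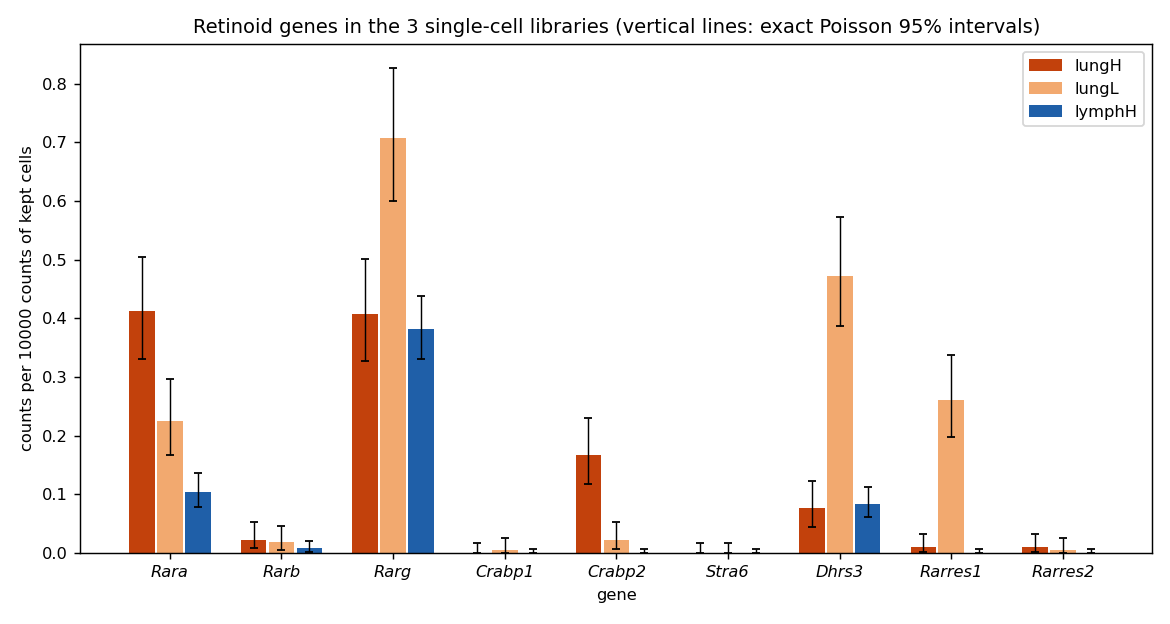
Counts of the 9 genes per 10000 counts of the kept cells (vertical axis) in the lungH, lungL and lymphH libraries, by gene (horizontal axis). Vertical lines are exact Poisson 95% intervals. *Rarg*, *Dhrs3* and *Rarres1* are highest in lungL, and *Rara* and *Crabp2* in lungH.

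Within lungL, cells fell into 3 clusters of at least 20 cells, made with the 9 genes left out of the clustering. They are called by their numbers. Cluster 6 (139 cells, median 11740 counts) was led by *Acta2*, *Grem1* and *Bgn*, cluster 7 (142 cells, median 745 counts) by *Col1a1*, *Col5a2* and *Col1a2*, and cluster 0 (38 cells, median 9744 counts), which also held lungH cells, by *Prl2c3*, *Cyp1b1* and *Mmp3*. Of the 58 *Rarres1* counts, 52 were in cluster 6, or 0.313 per 10000 (0.234 to 0.411), 6 in cluster 7, or 0.331 (0.121 to 0.72), and 0 in cluster 0, where 3 counts of the total come to 0.0843. The counts of cluster 7 came from 4 cells. Marker sums differed between the same clusters. In clusters 6 and 7 the fibroblast sums were 24.4 and 61.9 per 10000, the myoepithelial or basal sums 54.8 and 52.9, the epithelial sums 0.446 and 0.827, and the cycling sums 1.83 and 2.81. In cluster 0 these were 1.15, 2.16, 7.36 and 13.5, and their part in the *Rarres1* difference was not tested. Over all lungL cells *Acta2* gave 10116 of the 10180 counts of the myoepithelial or basal list, and *Krt5* and *Krt14* had 0, so this sum names no basal identity. *Dhrs3* was at 0.584 (0.474 to 0.713) in cluster 6, 0.221 (0.0601 to 0.565) in cluster 7 and 0.0843 (0.0174 to 0.246) in cluster 0. Its 97 counts in cluster 6 made up most of the 105 in lungL. *Rarg* was at 0.777 (0.649 to 0.923) in cluster 6 and 0.827 (0.463 to 1.36) in cluster 7, against 0.337 (0.174 to 0.589) in cluster 0. *Rara*, at 0.223, 0.331 and 0.197 in clusters 6, 7 and 0, had overlapping intervals throughout. The 1 *Rarres2* count was in cluster 6.

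**Figure D5:**
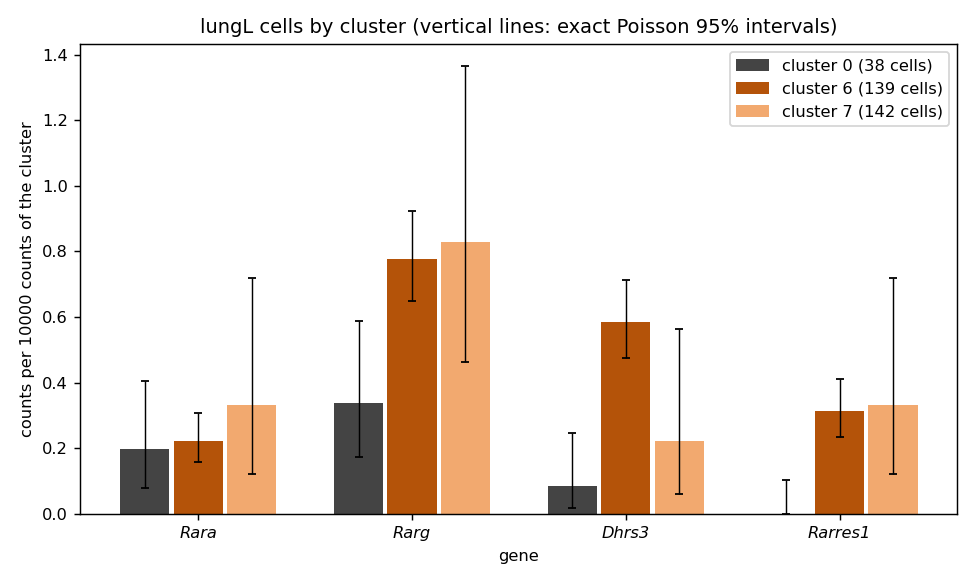
Counts of *Rara*, *Rarg*, *Dhrs3* and *Rarres1* per 10000 counts of each cluster (vertical axis) in the 3 lungL clusters, by gene (horizontal axis). Vertical lines are exact Poisson 95% intervals. *Rarres1* has no count in the 38 cells of cluster 0, and the intervals of *Rara* overlap in all 3 clusters.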

How the data were processed

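Bulk RNA-seq was measured in 14 libraries. Per the study's methods, cDNA was made by the authors with a form of SMART-seq2, and the submitters' processing notes name STAR, RSEM, kallisto and build mm10. The authors deposited TPM values, which keep no depth, so counting error in bulk is unknown. Strand use is not given in the sources used here. All 55450 gene identifiers matched GENCODE vM21, which gave positions. The 15348 genes that reached 1 TPM in 2 or more libraries were fitted as log2(TPM + 1) with limma 3.58.1 in R 4.3.3 (lmFit, eBayes with trend), 7 group means and 7 residual degrees of freedom, in 12 comparisons. Calls needed p under 0.05 after Benjamini-Hochberg adjustment across the tested genes, and a log2 difference over 2.

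For the 3 ddSeq libraries the authors deposited unfiltered counts per gene and barcode. Cells with over 250 genes and under 10% mitochondrial counts were kept, with 2210623, 2220759 and 5287425 counts in lungH, lungL and lymphH. Counts were summed per library or cluster. With scanpy 1.11.5, cells were clustered on 2000 variable genes, 20 components and 15 neighbours at Leiden resolution 0.8. Scrublet called 1, 0 and 4 doublets, which were kept. Procedures were tested on simulated data.

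The text names the 9 members, every pathway gene called in a comparison, and for each tested member the 3 genes most correlated with it, except 2 genes that are not reported here. Others are marked where named. The members and lists were chosen with earlier results of these data known. Promoter sequences are from RefSeq (GRCm38.p6).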

Additional observations from a re-analysis of the deposited data

Results flagged for a closer look

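The difference between CD44high and CD44low cells in lung was set against that in LN and in BM by the interaction contrast in limma, which called 10.4% and 8.66% of all genes tested. *Rarres1* and *Rarres2* were called in both. Their number is not read against these shares, since 7 of the 9 retinoid genes were tested and *Rarres1* and *Rarb* passed the filter through lung CD44low cells. For *Rarres1* the difference in lung minus that in LN was -6.15, and minus that in BM -5.95. For *Rarres2* these were -6.46 and -8.02. Of the 29 other pathway genes tested, 6 were called against LN and 4 against BM, or 20.7% and 13.8%. The count against BM was not stable when single libraries were left out, and it rose most without the first BM CD44low library. That count is therefore not read as a result. Lung against LN gave 2.52 for *Dhrs9*, -4.06 for *Adh1*, -6.15 for *Aldh1a1*, -4.74 for *Cyp26b1*, -4.88 for *Fabp5* and -2.11 for *Ccrl2*. Lung against BM gave -4.06 for *Adh1*, -5.30 for *Aldh1a1*, -3.46 for *Cyp26b1* and -4.48 for *Fabp5*. *Ccrl2* lost its call without the first LN CD44high library (-1.71) or the first lung CD44high library, *Cyp26b1* against BM without the second lung CD44low library (limma adjusted p 0.0579) and at a pseudocount of 0.1. All are differences on the log2(TPM + 1) scale and depend on the pseudocount where a group was listed at 0.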

How the results depend on the processing

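The calls of *Rarres1* and *Rarres2* in lung CD44low against MFP, between the lung groups, in lung against LN and BM and in both interactions held in all 20 alternatives. All rest on the same lung CD44low libraries, so the alternatives are not read as separate support. For *Rarres1* in lung CD44low against MFP the difference ranged from 5.64 to 7.995, and for *Rarres2*, with MFP at 0, the pseudocount sets the fitted value. Of 240 recounts of members called, 14 differed, 9 of them from 2 to 3 and 5 by more than 1.5 times. At a pseudocount of 0.1, 1 member was called in LN CD44high (*Rarb*) and 1 in BM CD44low (*Rarres2*, 3.57) against MFP. In BM CD44high against MFP the count was 0 with only the groups compared, and 0 to 1 over the libraries left out. In lung CD44high against MFP it was 0 to 1 over the libraries left out, with *Dhrs3* called without the second MFP library. Among these counts and the values of called genes, no direction reversed. The number of pathway genes called differed in 39 of 240 recounts, in 16 by more than 1.5 times, for instance from 1 to 5 in BM CD44low and from 2 to 8 in BM CD44high at a pseudocount of 0.1.

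Replicate numbers did not pair the samples. Deviations of same-numbered libraries correlated over 0.1 in 3 of 21 pairs of groups (-0.194 to 0.168), and with a replicate block the members called were again 2 in lung CD44low against MFP and 1 in BM CD44high, with no member call changed.

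Over all genes, a pseudocount of 0.1 raised the calls in LN CD44high against MFP from 940 to 1876 and in lung against LN and BM from 1946 to 3650, and a fit of only the groups compared lowered them in LN CD44low from 735 to 313 and in BM CD44low from 1099 to 660. That fit gave 0 calls between CD44high and CD44low cells in LN and in BM, against 32 and 16, and without the first BM CD44low library the BM calls rose to 975. Median-ratio scaling moved the median difference of all genes in LN CD44high from -0.301 to 0.02 and in BM CD44high from -0.336 to 0.037, where 558 of 1177 calls were higher before and 64.9% after. In lung against LN and BM, 1095 of 1946 were higher before and 45.6% after. In single cells, 9 of 162 recomputed levels left the Poisson interval of the value reported. For *Dhrs3* in lungH an average of per-cell values gave 0.18 per 10000 and cells with more than 500 genes gave 0.0302. Leaving out called doublets, chosen after seeing the data, changed no count of genes with intervals apart. Other Leiden resolutions left the cluster values within their intervals. Depth limits the single-cell values of *Rarb*, *Crabp1*, *Stra6* and *Rarres2*, each with at most 5 counts a library.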
